A study of Mus musculus with 7 samples.

Results

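The 10 genes described here belong to the granulocyte and monocyte program, and they were chosen by name from the 55487 genes in the raw count table. They comprise 5 transcription factors (Spi1, Cebpa, Cebpb, Cebpe and Irf8), 3 cytokine receptor subunits (Csf2ra, Csf2rb and Csf3r) and 2 granule proteins (Mpo and Elane). Newly made RNA was measured in 7 libraries of GFI1+ IAHC cells, CD31+cKIT+ cells of the hematopoietic clusters inside the aorta that express a Gfi1:tomato reporter, sorted from the aorta-gonad-mesonephros region (AGM) of CD1/Gf1+ embryos at E11.5. In 2 libraries (Fc-JAG1 1 and 3) the cells were cultured for 4 h with Fc-JAG1, a recombinant form of the Notch ligand JAG1, and in 2 (compE 1 and 2) with compE, which blocks γ-secretase, the enzyme that cuts Notch receptors to free their intracellular domain. In the other 3 (washout 1, 2 and 3) they received DMSO after compE had been washed out. The cells of all groups, washout included, had first been kept overnight in compE and were then cultured in methylcellulose with growth factors, so no library comes from untouched cells. A number marks the biological sample, which the labels call an embryo and the study describes as a pool of embryos. The study excluded a library named Fc-JAG1 2 because too few of its reads aligned uniquely. Number 2 thus has no Fc-JAG1 library and number 3 no compE library, so these conditions share number 1 only. Each library was made from a set of 300 to 400 cells.

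Hematopoietic progenitors turn to the granulocyte and monocyte lineages when the transcription factors PU.1 (encoded by Spi1) and C/EBPα (encoded by Cebpa) act together on receptor and granule genes. C/EBPε drives late granulocyte maturation, IRF8 directs progenitors to monocytes, and C/EBPβ serves when demand for granulocytes is high. The receptors for GM-CSF (Csf2ra and Csf2rb) and G-CSF (Csf3r) carry the growth signals of these lineages, and Mpo and Elane encode myeloperoxidase and neutrophil elastase, enzymes of the primary granules. In the AGM, GFI1+ IAHC contain the emerging stem cells, and the comparisons ask how blocking γ-secretase or adding a Notch ligand changes what these cells transcribe.

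The libraries differed widely in how many genes they held, although total counts were 21652927 to 33974693. Tests covered the 10311 genes that reached 10 counts in 2 or more libraries of 1 condition. Of these, 90.5% and 69.9% reached 10 counts in Fc-JAG1 1 and 3, 71.1% and 92.4% in compE 1 and 2, and 56.2% in washout 1, 94.2% in washout 2 and 68.0% in washout 3. The members followed the same order, with 9 and 7 of the 10 at 10 counts or more in Fc-JAG1 1 and 3, 7 and 9 in compE 1 and 2, and 4, 9 and 6 in the washout. Each condition thus had a gene-rich library, Fc-JAG1 1, compE 2 and washout 2, and in these the 9 members other than Irf8 all had at least 100 counts. Of the markers of the sorted cells, Kit and Runx1 had at least 6381 counts in all libraries. Pecam1, which encodes CD31, had 11 counts in Fc-JAG1 3 and 18 in washout 1. Gfi1 had 2504 counts in Fc-JAG1 1, 2477 in washout 3 and at most 12 elsewhere, although all cells were sorted on its reporter. A count of 0 in a library allows up to 3 counts, which is 0.0774 to 0.174 CPM (counts of a gene relative to the TMM-scaled size of its library, the unit of all levels below).

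**Figure D1:**
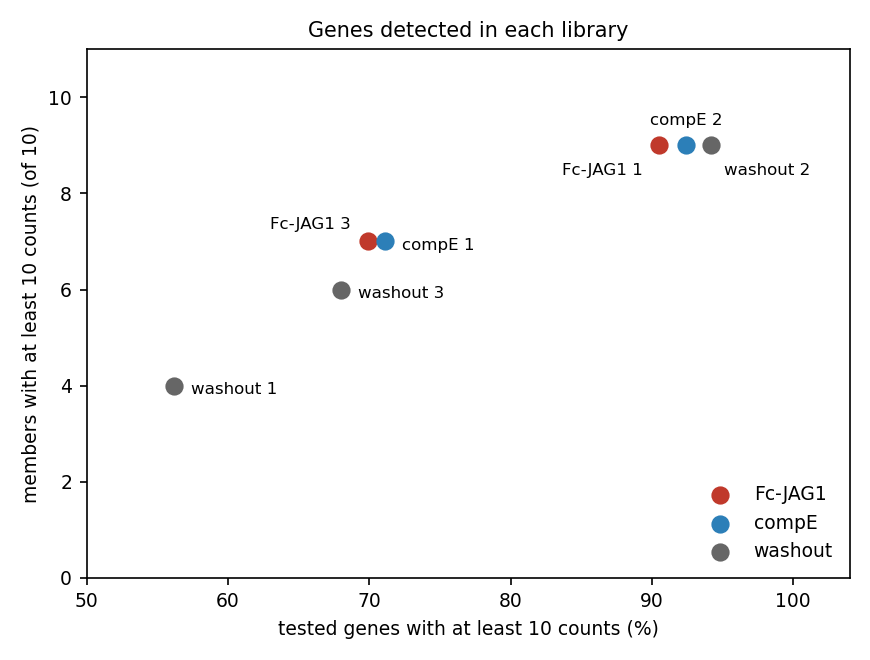
Members with at least 10 counts (y axis, of 10) against the share of the 10311 tested genes with at least 10 counts (x axis, percent), 1 point per library, colored by condition. Fc-JAG1 1, compE 2 and washout 2 lie at 90.5% to 94.2% with 9 members, and washout 1 lies lowest, at 56.2% with 4 members.

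Of the transcription factors, Spi1 (chromosome 2, 91082390 to 91115756 of GRCm38) was transcribed in all libraries. It stood at 307.9 and 221.9 CPM in Fc-JAG1 1 and 3, at 384.8 and 268.3 CPM in compE 1 and 2, and at 1393, 408 and 262.1 CPM in washout 1, 2 and 3. The groups overlapped, and the high washout mean came from washout 1, the library with the fewest genes. Cebpb was also found in all libraries, at 39.8 and 13.6 CPM with Fc-JAG1, 30.8 and 16.2 CPM with compE and 73.7, 54.9 and 18.0 CPM in the washout. Its values overlapped among the 3 conditions.

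Cebpa, whose product is required for the step from common myeloid to granulocyte and monocyte progenitors, had its highest levels in the Fc-JAG1 libraries. It stood at 116.8 and 79.8 CPM in Fc-JAG1 1 and 3, at 20.9 and 16.2 CPM in compE 1 and 2, and at 0.0581, 38.0 and 0 CPM in washout 1, 2 and 3. The counts behind these were 4255 and 1884 with Fc-JAG1, 528 and 629 with compE, and 1, 1370 and 0 in the washout. Both Fc-JAG1 libraries were above all 5 others, while the compE libraries lay between washout 2 and the other washout libraries. Of all tested genes, 10.5% had both Fc-JAG1 libraries above the washout and 15.0% above compE. The share above both groups was not counted. Cebpe (chromosome 14, 54710360 to 54712174) showed no such order, with 18.1 and 0.127 CPM in Fc-JAG1 1 and 3, 0 and 13.4 CPM in compE 1 and 2, and 0, 20.7 and 212.8 CPM in washout 1, 2 and 3. It was near 0 in a library of every condition, and washout 3 was the highest library by far.

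Irf8 had 0 counts in all 7 libraries, and this 0 is no measure of its transcription. The gene (chromosome 8, 120736358 to 120756694 of GRCm38, plus strand) lies wholly inside Gm20388, a gene model of 4434882 bp on the same strand (119910841 to 124345722), and reads that overlap several genes appear to have been left out of the counts. All 71 protein-coding genes that lie wholly inside Gm20388 had 0 counts in all libraries. Among all protein-coding genes wholly inside another gene, 94.4% of 1279 had 0 counts throughout, against 18.5% of the 20695 others. For the other members, part of the exons was hidden in the same way, with 596 of 1504 bp left countable in Cebpb (under Tmem189), 2368 of 3424 bp in Mpo (under Gm11505) and 2323 of 2636 bp in Cebpa (under Gm45091). These overlapping genes lie on the other strand, and these positions come from GENCODE M21.

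Of the receptor subunits, Csf2rb (chromosome 15, 78325752 to 78353847), which encodes the signaling β chain shared by the GM-CSF, IL-3 and IL-5 receptors, was the highest member in CPM. It stood at 1424 and 1465 CPM in Fc-JAG1 1 and 3, at 1574 and 1105 CPM in compE 1 and 2, and at 1257, 701.8 and 3744 CPM in washout 1, 2 and 3. It was present throughout, and the washout libraries spanned all values of the others. Csf2rb2, a near-identical neighbor, was counted beside it at 3558 to 75803 counts, so reads may have been lost or split between the pair. Csf2ra, the chain that binds GM-CSF, stood at 123.0 and 37.4 CPM with Fc-JAG1, 315.7 and 65.5 CPM with compE, and 0.0581, 81.3 and 273.8 CPM in the washout. It had 1 count in washout 1, where Csf2rb had 21658. Csf3r, the G-CSF receptor of the granulocyte lineage, stood at 46.5 and 1.40 CPM in Fc-JAG1 1 and 3, at 4.03 and 45.2 CPM in compE 1 and 2, and at 0, 39.0 and 0.0356 CPM in washout 1, 2 and 3. Its high libraries were the gene-rich ones of each condition.

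The granule genes took both patterns. Mpo, among the earliest granule genes to be transcribed, stood at 247.3 and 849.9 CPM in Fc-JAG1 1 and 3, at 730.8 and 191.6 CPM in compE 1 and 2, and at 5.57, 253.7 and 558.6 CPM in washout 1, 2 and 3. It exceeded 190 CPM in all libraries but washout 1. Elane was found in the gene-rich libraries only, with 796 counts in Fc-JAG1 1, 425 in compE 2 and 400 in washout 2, and 0 in the other 4 libraries. It was therefore under the filter, as was Irf8, and 8 of the 10 members were tested.

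**Figure D2:**
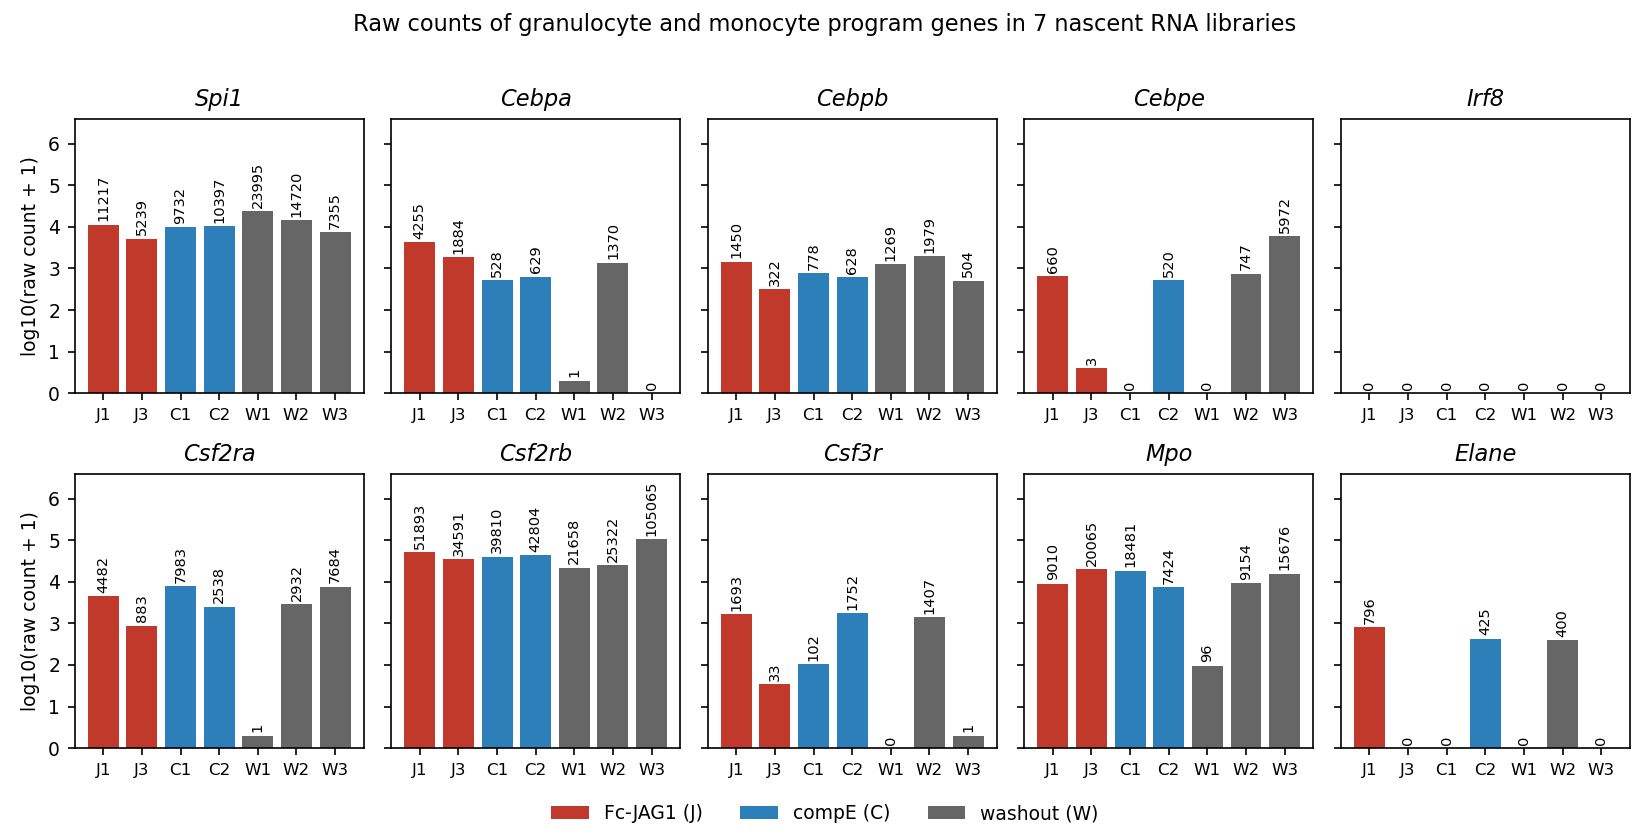
Raw counts of the 10 members in each library on a log10 scale (y axis, log10 of the count plus 1, with the count printed above each bar), for Fc-JAG1 1 and 3 (J1, J3), compE 1 and 2 (C1, C2) and washout 1 to 3 (W1 to W3). Spi1, Cebpb and Csf2rb were found in all 7 libraries, Elane in 3, and Cebpa was at 1884 counts or more with Fc-JAG1 and at 1370 or fewer in the others.

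Levels were compared between genes per kb of countable exon, as means over the 7 libraries. Csf2rb was highest at 223.2 CPM per kb, and Spi1 and Mpo followed at 172.1 and 171.2, which do not differ beyond the spread of either. Cebpb had 59.2, Csf2ra 44.6, Cebpe 30.5, Cebpa 16.7, Elane 6.37 and Csf3r 5.39 CPM per kb. The order depends on the length used, since introns of newly made RNA were counted too, and per kb of the countable gene span Mpo led at 74.1, Cebpb and Csf2rb had 59.2 and 57.4, and Spi1 13.9 CPM per kb. The members also differed in how steady they were. The coefficient of variation over the 7 libraries was 61.1% for Csf2rb, 63.7% for Cebpb, 76.7% for Mpo, 89.6% for Spi1, 94.1% for Csf2ra, 113% for Cebpa, 117% for Csf3r and 205% for Cebpe. Its quartiles over all tested genes were 78.6%, 108% and 145%, so Csf2rb, Cebpb and Mpo lay under the lower quartile and Cebpe above the upper. By Euclidean distance of log2 CPM over the 7 libraries, the genes nearest to Csf2rb were Hnrnpa2b1 (1.31), Pfn1 (1.62) and Cnbp (1.68), which encode an RNA-binding protein, profilin and a nucleic acid-binding protein. Those nearest to Cebpa were Ndst2 (1.94), Smad7 (2.09) and Poglut1 (2.19). What such nearness means was not tested.

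Since Spi1 was transcribed in every library, the promoters of the members were searched for GAGGAA, the core that PU.1 binds, on both strands. RefSeq gave windows from 250 bases before to 50 after the start site on GRCm38.p6 for 7 of the 10 members, and 8 windows in all, as Irf8 has 2. GAGGAA was in the windows of Csf2ra, Csf3r, Mpo and Elane and not in those of Cebpa, Cebpb and Irf8, which made 4 of 8 windows, against 28.3% of 32851 windows of that length. The 250 bases before the start site are shown for these 4 genes and for Cebpa, with GAGGAA in capitals. Cebpa was added because its Fc-JAG1 libraries lay above all others.

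Csf2ra, chr19:61228419-61228668, minus strand: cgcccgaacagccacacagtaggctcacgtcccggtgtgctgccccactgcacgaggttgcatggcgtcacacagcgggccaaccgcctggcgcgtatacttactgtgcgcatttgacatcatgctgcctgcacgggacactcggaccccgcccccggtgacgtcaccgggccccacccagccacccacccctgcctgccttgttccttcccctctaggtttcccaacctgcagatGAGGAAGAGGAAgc
Csf3r, chr4:126024409-126024658, plus strand: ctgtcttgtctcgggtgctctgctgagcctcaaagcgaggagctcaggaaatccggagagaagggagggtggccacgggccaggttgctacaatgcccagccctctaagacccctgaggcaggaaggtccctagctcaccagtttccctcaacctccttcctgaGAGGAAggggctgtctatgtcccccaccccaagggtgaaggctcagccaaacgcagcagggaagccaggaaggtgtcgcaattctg
Mpo, chr11:87793534-87793783, plus strand: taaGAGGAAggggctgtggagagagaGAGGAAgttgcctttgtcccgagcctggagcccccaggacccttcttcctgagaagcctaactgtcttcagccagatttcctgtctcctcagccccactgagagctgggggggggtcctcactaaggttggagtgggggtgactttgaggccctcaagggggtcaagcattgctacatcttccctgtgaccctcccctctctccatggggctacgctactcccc
Elane, chr10:79886062-79886311, plus strand: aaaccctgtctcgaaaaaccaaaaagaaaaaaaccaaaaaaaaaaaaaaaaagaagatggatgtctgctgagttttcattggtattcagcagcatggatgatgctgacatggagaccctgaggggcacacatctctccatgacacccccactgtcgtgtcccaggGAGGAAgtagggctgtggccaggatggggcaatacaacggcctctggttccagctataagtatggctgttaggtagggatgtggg
Cebpa, chr7:35119043-35119292, plus strand: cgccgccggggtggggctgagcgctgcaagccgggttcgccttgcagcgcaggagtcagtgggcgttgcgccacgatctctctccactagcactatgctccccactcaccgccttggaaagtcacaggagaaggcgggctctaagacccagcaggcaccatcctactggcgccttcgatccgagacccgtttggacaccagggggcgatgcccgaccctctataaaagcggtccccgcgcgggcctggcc

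The capitals begin 14 and 8 bases before the start site in Csf2ra, 86 before it in Csf3r, 247 and 224 in Mpo and 85 in Elane. TGGGAA, the core bound by the Notch effector RBPJ, was in 3 of 8 windows (Csf2ra and both of Irf8), against 25.6% of all windows, and not in that of Cebpa. TTGCNNAA, a C/EBP core, was in 0 of 8 windows (10.8% of all), and TGTGGT, the RUNX core, in 0 of 8 (16.8% of all). These matches describe the letters of the windows only.

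With Fc-JAG1 against washout, Cebpa was the member whose groups did not overlap. Its mean was 98.3 ± 26.2 CPM with Fc-JAG1 (SD, n = 2) and 12.7 ± 21.9 CPM in the washout (SD, n = 3). Of all tested genes, 10.5% lay wholly above and 6.85% wholly below the washout, so 1 of 8 tested members is near the background. By edgeR's quasi-likelihood test with the biological sample as a block, 0 of the 10 members were called at an adjusted p under 0.05 (0% of all 10311 genes, 0 called). At an unadjusted p under 0.05 there were 0 members by edgeR, against 4.96% of all genes. The Wald test of DESeq2 with those terms, as used in the study, called 3 members higher and 0 lower. Of all genes it called 20.4%, with 15.7% higher and 4.74% lower. These were Cebpa, Csf3r and Cebpe.

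The paired libraries show what each of these calls rests on. For Cebpa, the log2 ratio (of CPM plus 1) was 6.80 for Fc-JAG1 1 over washout 1 and 6.34 for Fc-JAG1 3 over washout 3, where the median of all tested genes was 0.91 and 0. Its edgeR log2 fold change was 5.74 (SE 3.42, adjusted p = 0.840) and its DESeq2 log2 fold change 11.03 (SE 2.59, adjusted p = 0.000482). Every SE given for edgeR is the absolute log2 fold change divided by the square root of its F statistic. It is not a fitted standard error like that of DESeq2. Both pairs set Fc-JAG1 against a washout library with 1 or 0 counts. Against washout 2, the gene-rich washout library, the log2 ratio of Fc-JAG1 1 was 1.60, with a median of 0.01 over all genes. DESeq2 no longer called it when washout 3 (6.20, adjusted p = 0.183) or Fc-JAG1 3 (6.29, 0.199) was left out, and without Fc-JAG1 1 the gene no longer met the rule of 10 counts in 2 libraries of 1 condition. In these fits and those without each other library, its log2 fold change was above 0 in 7 of 7 by either tool.

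Csf3r had a log2 ratio of 5.57 for Fc-JAG1 1 over washout 1 and of 1.21 for Fc-JAG1 3 over washout 3, from 1693 and 33 counts in the Fc-JAG1 libraries, against 0 and 1 in these washout libraries. Its DESeq2 log2 fold change was 6.14 (SE 2.21, adjusted p = 0.0309) and its edgeR log2 fold change 5.11 (SE 3.55, adjusted p = 0.871). In the gene-rich libraries it stood at 46.5 CPM in Fc-JAG1 1 and 39.0 CPM in washout 2. Its mean was 23.9 ± 31.9 CPM with Fc-JAG1 (SD, n = 2) and 13.01 ± 22.5 CPM in the washout (SD, n = 3), a difference smaller than either spread. The DESeq2 call was lost without Fc-JAG1 1 (5.27, adjusted p = 0.399), Fc-JAG1 3 (7.82, 0.0937), washout 1 (4.58, 0.166) or washout 3 (7.70, 0.0853).

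DESeq2 called Cebpe higher with Fc-JAG1 although its mean was lower, at 9.12 ± 12.7 CPM with Fc-JAG1 (SD, n = 2) and 77.8 ± 117 CPM in the washout (SD, n = 3). Its pairs went opposite ways, with a log2 ratio of 4.26 for Fc-JAG1 1 over washout 1 (660 and 0 counts) and −7.57 for Fc-JAG1 3 over washout 3 (3 and 5972 counts). The DESeq2 log2 fold change was 8.36 (SE 3.25, adjusted p = 0.0490) and that of edgeR 0.44 (SE 4.45, adjusted p = 1.00). Without Fc-JAG1 3 DESeq2 called it higher (10.09, adjusted p = 0.0252), and without Fc-JAG1 1 it called it lower (−10.74, adjusted p = 0.00843). Leaving out washout 3 gave 10.02, with the rule on counts not met, and the calls were lost without washout 1 (−3.83, adjusted p = 0.480), washout 2 (−0.78, 0.931), compE 1 (−1.06, 0.881) or compE 2 (−0.79, 0.930). Washout 3 also had the highest sum of 8 mast cell, basophil and eosinophil markers, at 3481.2 CPM before TMM scaling. These sums were 205.7 and 531.7 with Fc-JAG1, 19.8 and 562.5 with compE, and 891.6 and 733.4 in washout 1 and 2. Different markers made up the sums. Washout 1 had 19289 counts of Cpa3 and 0, 1 and 15 of Prg2, Epx and Hdc. Washout 3 had 7526 counts of Cpa3 and 30889, 15293 and 53944 of the others. Of these markers 2 to 5 reached 10 counts in a library, and Mcpt8 and Fcer1a had 0 in all. Cebpe stood at 13.4 to 212.8 CPM in the 3 libraries with Prg2 and Epx, which encode eosinophil granule proteins, and at 18.1 CPM in Fc-JAG1 1, which had 0 and 2 counts of them. The part of such cells in the result was not tested, and in these bulk samples fewer cells of a type and less RNA per cell cannot be told apart.

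The other 5 tested members were called by neither tool. Their log2 fold changes by edgeR with Fc-JAG1 were −1.13 for Spi1 (SE 1.09), −0.74 for Cebpb, −0.78 for Csf2ra, −0.46 for Csf2rb (SE 0.38) and 1.16 for Mpo (SE 1.51). The median of the 8 was −0.01, and that of all genes 0.44. That of all genes moved to 0.07 when edgeR used DESeq2 size factors and to 0.71 with total counts alone. In the pair of number 1, Mpo and Csf2ra had log2 ratios of 5.24 and 6.87, against 0.60 and −2.84 in the pair of number 3. Between the gene-rich libraries Fc-JAG1 1 and washout 2, log2 ratios were 1.60 for Cebpa, 1.02 for Csf2rb, 0.92 for Elane and between −0.45 and 0.59 for the other 6 with counts.

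With compE against washout, the members showed no common direction. EdgeR called 0 of 10 members (0% of all genes, and 0 members at an unadjusted p under 0.05, where all genes had 2.54%), and DESeq2 called 0 (9.33% of all genes, 5.66% higher and 3.67% lower). No member had groups that did not overlap, against 10.9% of all genes wholly above and 6.79% wholly below the washout. The largest edgeR log2 fold change was that of Mpo, at 2.19 (SE 1.60, adjusted p = 1.00). The pairs differed, with a log2 ratio of 6.80 for compE 1 over washout 1 and of −0.40 for compE 2 over washout 2. Cebpa likewise had log2 ratios of 4.37 and −1.18 in these pairs, an edgeR log2 fold change of 1.75 (SE 3.16) and a DESeq2 log2 fold change of 6.40 (adjusted p = 0.0784). When washout 2 was left out DESeq2 called it higher (8.95, adjusted p = 0.0445), and when compE 1 was left out its log2 fold change was −1.28. Cebpb and Spi1 were the members below the washout in both pairs, with log2 ratios of −1.23 and −1.70 for Cebpb and of −1.85 and −0.60 for Spi1. Their edgeR log2 fold changes were −1.43 (SE 2.43) for Cebpb and −1.07 (SE 1.04) for Spi1, and neither was called (adjusted p = 1.00 for both by edgeR).

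The comparison of Fc-JAG1 with compE sets cells given a Notch ligand against cells with γ-secretase blocked. The Cebpa mean was 98.3 ± 26.2 CPM with Fc-JAG1 and 18.6 ± 3.29 CPM with compE (SD, n = 2 each), and the groups did not overlap. Of all genes, 15.0% lay wholly above and 15.4% wholly below compE, against 1 of 8 tested members above and 0 below. EdgeR called 0 members (0% of all genes, with 0 members and 2.54% of all genes at an unadjusted p under 0.05), and DESeq2 called 0 (11.4% of all genes, 9.18% higher and 2.21% lower). For Cebpa the log2 fold change was 3.99 by edgeR (SE 3.14, adjusted p = 1.00) and 4.63 by DESeq2 (SE 2.95, adjusted p = 0.350). The log2 ratio of Fc-JAG1 1 was 2.43 over compE 1, with which it shares a number, and 2.77 over compE 2, which is also gene-rich. Cebpe had a DESeq2 log2 fold change of 10.32 (adjusted p = 0.0645) from 660 and 3 counts with Fc-JAG1 and 0 and 520 with compE. It did not meet the rule on counts here, so it could not be called at any p. Csf3r had 3.58 (adjusted p = 0.417), with 46.5 CPM in Fc-JAG1 1 and 45.2 CPM in compE 2. Csf2rb had an edgeR log2 fold change of −0.73 (SE 0.44, adjusted p = 1.00), while its mean was the higher one with Fc-JAG1, at 1445 ± 28.8 CPM, and 1339 ± 332 CPM with compE (SD, n = 2 each). With no block its log2 fold change was 0.11.

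**Figure D3:**
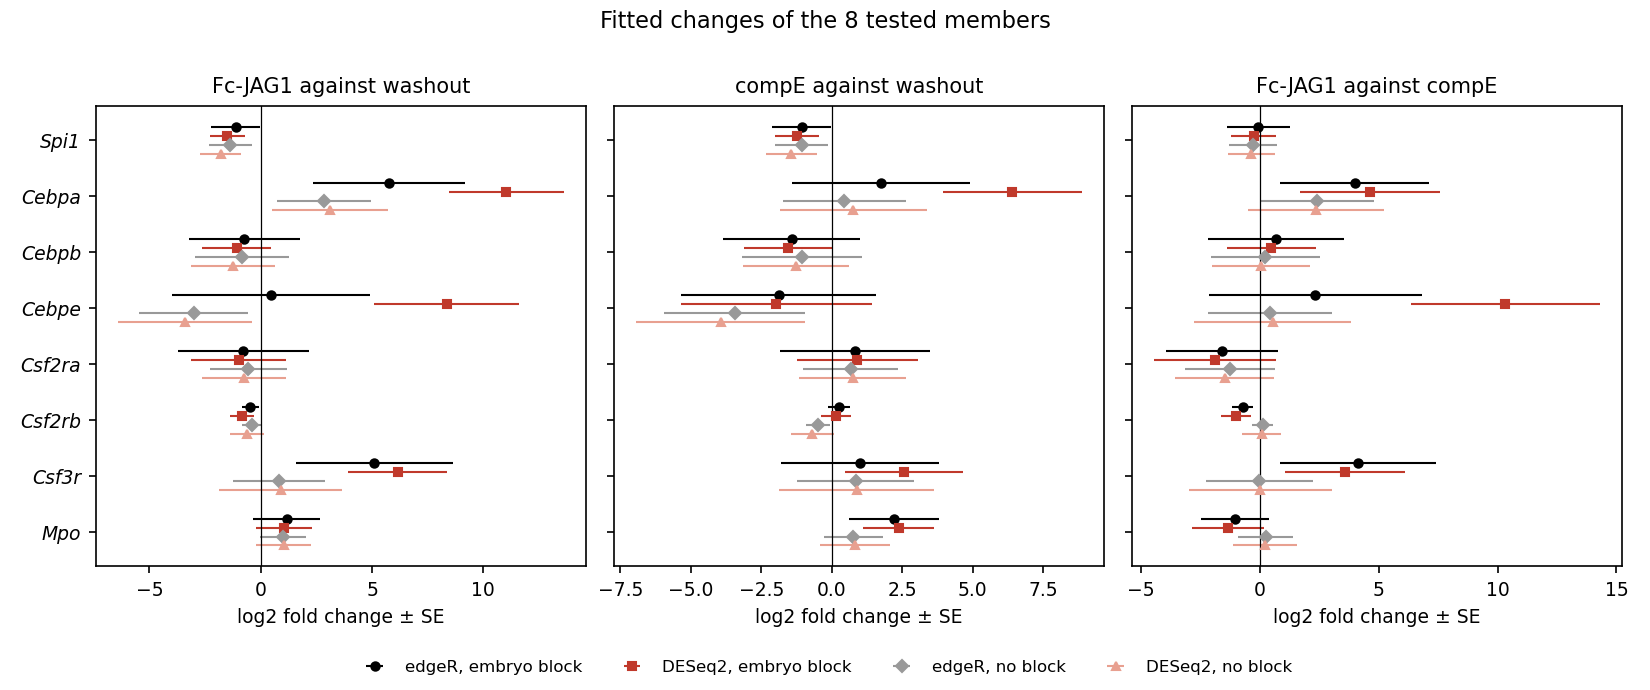
Log2 fold changes with error bars (x axis) of the 8 tested members (y axis) in the 3 comparisons, by edgeR and DESeq2, each with and without the biological sample as a block. Bars are standard errors for DESeq2, and for edgeR the absolute log2 fold change over the square root of its F statistic. The estimates of Cebpa, Cebpe and Csf3r with Fc-JAG1 spread most among the fits, with Cebpe at 8.36 by DESeq2 and 0.44 by edgeR with the block and −3.40 and −3.02 without it.

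With no block DESeq2 called 0 members in the 3 comparisons, and the log2 fold changes with Fc-JAG1 were 3.10 for Cebpa, 0.90 for Csf3r and −3.40 for Cebpe. In that fit DESeq2 gave neither a p nor an adjusted p for Cebpa and Csf3r in the 3 comparisons, so neither could be called. For Cebpe the adjusted p with Fc-JAG1 was 0.838.

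**Figure D4:**
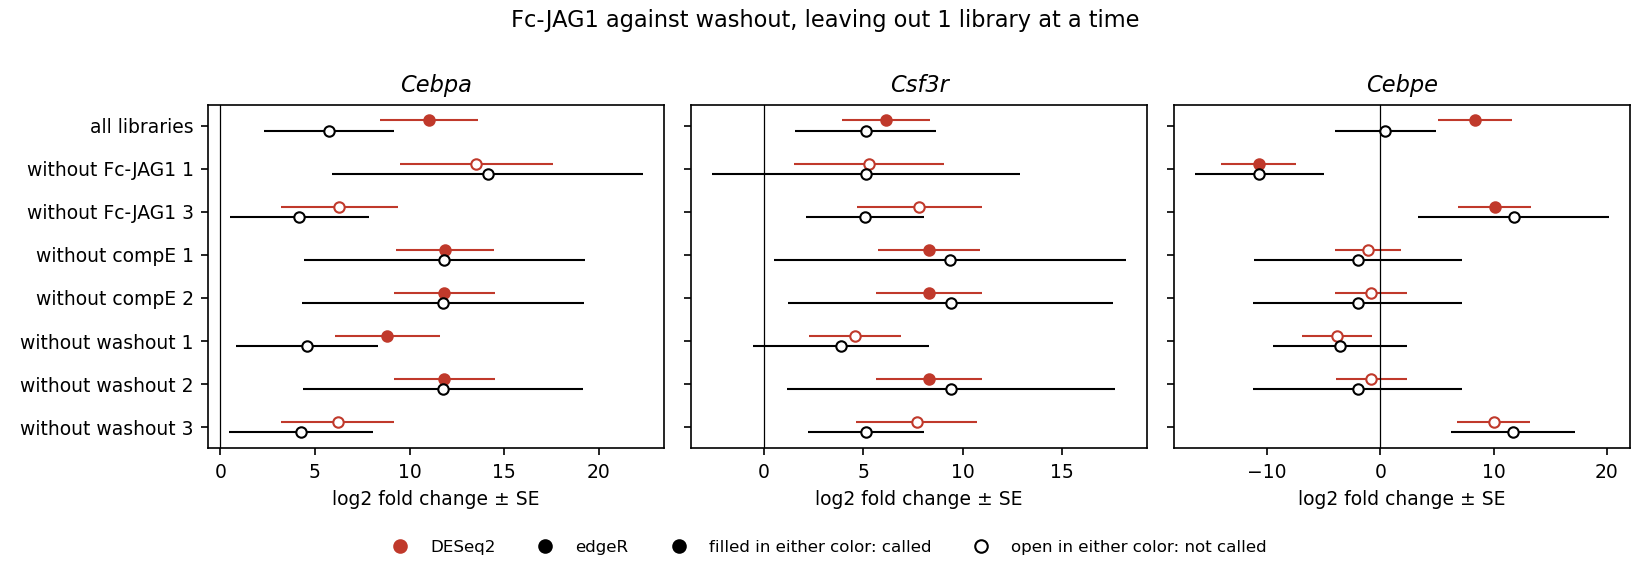
Log2 fold change with error bar (x axis) of Cebpa, Csf3r and Cebpe with Fc-JAG1 against washout, with all libraries and without each library in turn (y axis), by DESeq2 and edgeR. Bars are standard errors for DESeq2, and for edgeR the absolute log2 fold change over the square root of its F statistic. Cebpa ranged over 6.20 to 13.54 by DESeq2 and Csf3r over 4.58 to 8.32 when a library was left out, while Cebpe ranged over −10.74 to 10.09.

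In the 3 gene-rich libraries, a choice made after the values had been seen and with 1 library per condition, the members could be set side by side with no library at 0. The highest level was 1.19 times the lowest for Csf3r, 1.32 for Mpo, 1.52 for Spi1, 1.54 for Cebpe, 1.88 for Csf2ra, 1.99 for Elane and 2.03 for Csf2rb. Cebpb differed 3.38 times, highest in washout 2 and lowest in compE 2. Cebpa differed 7.20 times, highest in Fc-JAG1 1 and lowest in compE 2. These ratios have no replicate.

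Further genes of the program were read from lists. Over all genes, DESeq2 called 15.7% higher and 4.74% lower with Fc-JAG1 against washout, 5.66% and 3.67% with compE against washout, and 9.18% and 2.21% with Fc-JAG1 against compE. The counts of the lists, with 8 to 17 tested genes each, were not tested against these shares. Of 9 tested among 15 other myeloid transcription factors, DESeq2 called 1 higher (Egr1) and 1 lower (Rara) with Fc-JAG1 against washout, 1 lower with compE against washout (Gfi1) and 0 with Fc-JAG1 against compE. Egr1 had 2304 and 0 counts with Fc-JAG1, 0 and 1372 with compE, and 0, 1277 and 7211 in the washout, so its pairs went opposite ways. Its DESeq2 log2 fold change of 10.81 with Fc-JAG1 against washout was 12.10 (called) without Fc-JAG1 3, −15.04 (called lower) without Fc-JAG1 1. With no block it was −1.93. The Gfi1 call rests on 0 and 0 counts with compE, against 0, 12 and 2477 in the washout. Of 17 tested among 20 receptor partners and signal transducers, it called 3 higher with Fc-JAG1 against washout (among them Shc1 and Il6st), 2 lower with compE against washout (Il6ra and Ptpn11) and 2 higher with Fc-JAG1 against compE (among them Il6ra). Il6st, which encodes the signaling chain gp130, had 1030 and 4947 counts in the Fc-JAG1 libraries, 681 and 1282 with compE, and 55, 1244 and 2 in the washout. Its groups overlapped, and its DESeq2 log2 fold change against washout of 6.53 (adjusted p = 0.0193) was 1.49 without washout 3 and 1.55 without Fc-JAG1 3, where the call was lost.

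Of 13 tested among 24 other granule genes, DESeq2 called 3 higher with Fc-JAG1 against washout (Lcn2, S100a9 and Ms4a3), 1 lower with compE against washout (Lyz2) and 2 higher with Fc-JAG1 against compE (Lcn2 and Lyz2). S100a9, a calcium-binding protein of neutrophils, had 4773 and 0 counts with Fc-JAG1, 0 and 1437 with compE, and 0, 12124 and 12414 in washout 1, 2 and 3. As for Cebpe, its pairs went opposite ways. DESeq2 gave it a log2 fold change of 10.29 with Fc-JAG1 (adjusted p = 0.0153) and called it lower without Fc-JAG1 1 (−15.82). S100a9 was no longer called without washout 1 (−6.71), compE 1 (0.45) or compE 2 (2.92). Without washout 2 (2.82) or washout 3 (12.06, adjusted p = 0.0121) it did not meet the rule on counts, so it could not be called. Ms4a3 had 4125 and 0 counts with Fc-JAG1, 0 and 956 with compE, and 0, 4238 and 2957 in the washout, and DESeq2 called it higher without Fc-JAG1 3 (12.20) and lower without Fc-JAG1 1 (−13.75), against 10.75 with all libraries. With no block the DESeq2 log2 fold changes were below 0 for Lcn2 (−1.93), S100a9 (−2.19) and Ms4a3 (−0.56). Of 8 tested among 14 monocyte genes, DESeq2 called Cd14 higher with Fc-JAG1 against washout, Ctss lower and Ly86 higher with compE, and Ly86 lower with Fc-JAG1 against compE. With no block DESeq2 still called Ly86 in both comparisons (4.63, adjusted p = 0.0396, and −6.18, adjusted p = 0.0155). Ly86 was called in 0 of the fits that left out a library. Its counts were low, at 2 and 2 with Fc-JAG1, 203 and 34 with compE, and 1, 6 and 9 in the washout. Cd14, the co-receptor for bacterial lipopolysaccharide, had 2059 and 311 counts with Fc-JAG1, 0 and 664 with compE, and 0 in the 3 washout libraries. Its DESeq2 adjusted p against washout was 0.00146 and that of edgeR 0.828. With no block DESeq2 also called it higher (24.67, adjusted p = 4.08e-13), where the log2 fold change with the block was 12.41. Cd14 had 0 counts throughout the washout, so these log2 fold changes do not measure the size of its change. Its call was lost without Fc-JAG1 1 (10.95, adjusted p = 0.0726) and without Fc-JAG1 3 (13.75, adjusted p = 0.0144), where it no longer met the rule on counts. EdgeR called 0 genes of these 4 lists in the 3 comparisons, and at an unadjusted p under 0.05 it had 1 monocyte gene in each comparison (Cd14 with Fc-JAG1 against washout, and Ly86 in the others) and 0 genes of the other lists.

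List medians are given beside those of all genes. With Fc-JAG1 against washout the median edgeR log2 fold change was −0.09 for the other transcription factors, 0.23 for receptor partners and signal transducers, 0.03 for the other granule genes and −0.49 for the monocyte genes, beside 0.44 over all genes. With compE against washout these were −1.38, −0.39, −2.02 and −0.06, all below 0, beside −0.10 over all genes. With Fc-JAG1 against compE they were −0.27, 0.64, 4.11 and 0.51, beside 0.43 over all genes. Fc-JAG1 1 had 5 of the 24 granule genes at 0 counts, and compE 1, its pair, 15. The other libraries of these conditions went the opposite way, with 16 at 0 in Fc-JAG1 3 and 6 in compE 2. With no block, the DESeq2 median of the granule genes with Fc-JAG1 against compE was 0.87. Leaving out a library also moved the DESeq2 calls of single genes with Fc-JAG1 against washout, and of the 7 such fits Il6st and Cd14 were called in 5, Shc1 and Lcn2 in 4 and Rara in 1. Egr1, S100a9 and Ms4a3 were each called in 2, once higher and once lower.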

How the data were processed

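Newly made RNA was captured through EU, pre-amplified (14 cycles by the labels, fewer by the paper's methods) and sequenced. Per the methods and labels, the authors used cutadapt 4.2 for trimming, STAR 2.7.8 for alignment to GRCm38 and featureCounts (Subread 2.0.1) for counting unique reads by gene. The deposited raw counts hold whole reads for 55487 genes and 7 libraries, with no normalization and no molecular identifiers, so intervals and floors cover counting error only. A deposited table of transformed values was not used here. The sources differ on the amounts of compE and Fc-JAG1, so no dose is given.

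The members and lists were chosen with earlier results of these data known. Of the gene IDs, 55141 had a symbol in the tables used and 346 had none. EdgeR 4.0.16 in R 4.3.3 tested the 10311 genes that reached 10 counts in 2 or more libraries of 1 condition, on all 7 libraries (quasi-likelihood test, TMM, terms for biological sample and condition), and p-values were adjusted by Benjamini and Hochberg. A gene was called at an adjusted p under 0.05 where 2 libraries of either condition compared reached 10 counts. The block follows the study, which treats equal numbers as the same biological sample. Deviations of same-numbered libraries from their group means correlated at −0.0854 to 0.0915 (5 pairs), and those of libraries with different numbers at −0.0964 to 0.0964. In a group of 2 libraries the deviations mirror each other, so these values cannot tell whether the pairing holds. The common dispersion was 2.42 with 2 residual degrees of freedom. DESeq2 1.42.0 (Wald test), fits with no block, other scalings, no filter and leaving out each library were alternatives. Named genes were the members, genes that DESeq2 called in each list (at most 4 by p), and the 3 genes nearest to Csf2rb (highest mean) and Cebpa (smallest edgeR p with Fc-JAG1), with a prior count of 2. Some results that meet this rule are not reported here. Whether the libraries of a condition came from separate pools rests on the study's account, and p-values measure the spread between these libraries. Gene positions are from GENCODE M21, while the authors counted on another release of the annotation. Promoter sequences are from RefSeq. Figures were drawn with matplotlib 3.10.9.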

Additional observations from a re-analysis of the deposited data

How the results depend on the processing

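With 2 or 3 libraries per condition, of which 1 was rich in genes, the spread between libraries limits what these tests can find, and a count of 0 cannot be told apart from a gene missed in capture. EdgeR called 0 members in all its fits. With DESeq2 and the block, calls with Fc-JAG1 against washout were 3 members and 2108 genes (1619 higher and 489 lower), with compE 0 and 962, and with Fc-JAG1 against compE 0 and 1175. With TMM factors DESeq2 called 3, 0 and 0 members and 2163, 910 and 1271 genes. With no replicate block it called 0 members and 388, 325 and 190 genes, and edgeR 1, 0 and 0 genes. Cebpa and Csf3r had no p in that DESeq2 fit, so they could not be called there. Leaving out 1 library, the tools called 0 to 2, 0 to 1 and 0 members and 0 to 1937, 0 to 1240 and 0 to 1065 genes. The causes were not tested.

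Of the log2 fold changes of the 8 tested members, 53 of 56 kept their direction in other fits with all libraries for Fc-JAG1 against washout, 54 of 56 for compE against washout and 50 of 56 for Fc-JAG1 against compE. With Fc-JAG1 against washout, Cebpe was at −3.02 (edgeR) and −3.40 (DESeq2) with no replicate block and at −0.05 with the size factors of DESeq2. With compE, Csf2rb was at −0.51 and −0.70 with no block. With Fc-JAG1 against compE and no block, Csf2rb was at 0.11 and 0.07, Mpo at 0.25 and 0.20 and, by edgeR, Csf3r at −0.03, while Spi1 was at 0.18 with total counts only. When a library was left out, 88, 100 and 98 of 112 values kept their direction in the 3 comparisons. Ranges that crossed 0 with Fc-JAG1 against washout were −10.74 to 11.76 for Cebpe, −2.90 to 4.92 for Csf2ra, −1.38 to 0.26 for Csf2rb and −0.34 to 2.89 for Mpo. With compE they were −1.28 to 9.29 for Cebpa, −0.67 to 6.33 for Csf2ra, −0.24 to 0.63 for Csf2rb and −0.46 to 5.33 for Mpo. With Fc-JAG1 against compE they were −1.18 to 1.18 for Spi1, −10.04 to 12.39 for Cebpe, −8.57 to 3.94 for Csf2ra and −2.71 to 3.31 for Mpo. Where 1 library of a condition was left, it was assumed to vary like the others. The members found in each library stayed within 1.5 times at a minimum of 1 or 100 counts in all 14 values.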

Other observations

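Prg2 and Epx, which encode granule proteins of eosinophils, were all but absent from most libraries and high in the rest, a pattern noticed after the values had been seen. Prg2 had 0 counts in both Fc-JAG1 libraries, 0 and 7747 in compE 1 and 2, and 0, 11019 and 30889 in the washout. Epx had 2 and 0 counts in Fc-JAG1 1 and 3, 11 and 6350 in compE 1 and 2, and 1, 6182 and 15293 in the washout. Fc-JAG1 1 was gene-rich and still at 0 and 2 counts of the pair. Hdc, which encodes the enzyme that makes histamine, was found at 3422 and 9334 counts with Fc-JAG1, 1 and 4456 with compE, and 15, 2833 and 53944 in the washout.

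Among secondary granule and oxidase genes, which are transcribed late in granulocyte maturation, Camp had 545 and 0 counts with Fc-JAG1, 6 and 877 with compE, and 0, 1786 and 2255 in washout 1, 2 and 3. Ngp had 562 and 0 counts with Fc-JAG1, 0 and 989 with compE, and 0, 3334 and 0 in the washout. Cybb, the NADPH oxidase subunit, had 4266 and 0 counts with Fc-JAG1, 64 and 1243 with compE, and 0, 3101 and 0 in the washout. Ngp, like Elane, reached 10 counts in the gene-rich library of each condition and in no other library, and Cybb in these and in compE 1.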
